A study of Mus musculus with 8 samples.

Results

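The fibroblast growth factor (FGF) genes were described in arrays of 8 mouse embryos, taken whole at E8.5 (embryonic day 8.5) and each put on its own Agilent SurePrint G3 Mouse GE array. A fixed list of 34 genes was followed, made up of 22 ligands (Fgf1 to Fgf23, with no Fgf19), 5 receptors (Fgfr1 to Fgfr4 and Fgfrl1) and 7 feedback genes and targets (Spry1, Spry2, Spry4, Spred1, Dusp6, Etv4 and Etv5). All 34 had a probe, found through the RefSeq accession that the array gives for each probe, and they carried 49 of the 55681 distinct non-control probes on the array. Every embryo carried 1 copy of the hypomorphic allele Eedl7Rn5-1989SB on a C57bl6/129 background, and the mothers were wild type. Eed encodes a core protein of Polycomb Repressive Complex 2, which places a silencing mark on histone H3. Fathers homozygous for the allele (HOM father) sired 4 of the embryos, and heterozygous fathers (HET father) sired the other 4, with 2 females and 2 males on each side. The embryos themselves therefore had the same Eed genotype, and the comparison asked whether the genotype of the father was followed by a difference in his offspring. Per the study, the embryos were matched for stage and size and the sires were brothers from 3 mating pairs, so that some of the 4 embryos of a group shared a father. The files do not say which ones did. In the sample labels, HOM father replicates 3 and 4 shared an identifier prefix, as did HET father replicates 1 and 2. The meaning of the prefix is not stated. Each father group was on a slide of its own, so slide and father cannot be told apart in any value below.

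FGF ligands are mostly secreted proteins that bind, with heparan sulfate, to tyrosine kinase receptors and switch on the Ras-Erk cascade. The cascade induces the transcription factors Etv4 and Etv5 and its own inhibitors of the Sprouty, Spred and dual-specificity phosphatase families, so the levels of these genes are commonly read as a sign of signalling. At this stage Fgf8 and its relatives are known for their roles in the tailbud and presomitic mesoderm, at the border of midbrain and hindbrain and at the anterior neural ridge. The ligands of the FGF11 subfamily differ from the others in staying inside the cell, where they bind sodium channels.

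RefSeq promoter sequences (build GRCm38.p6) were matched by symbol for 25 of the 34 genes. They are shown for the 4 members below that passed the test between father groups and had an entry, as the DNA next to an annotated start of each gene. Whether that start belongs to the transcript that the passing probe reads was not analysed. Each is the 250 bases before the start site, 5' to 3' on the gene's strand. Capitals mark matches, on either strand, to CCGGAAGT (a binding sequence of ETS factors, the family of Etv4 and Etv5), to CCAAT (the CCAAT box) and to GGGCGG (the GC box).
Fgf11, chr11:69802281-69802530, minus strand: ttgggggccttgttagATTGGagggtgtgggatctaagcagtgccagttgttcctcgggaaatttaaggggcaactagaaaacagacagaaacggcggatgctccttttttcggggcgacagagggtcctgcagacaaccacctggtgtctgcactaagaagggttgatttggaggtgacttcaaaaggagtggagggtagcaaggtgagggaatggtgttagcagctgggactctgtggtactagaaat
Fgf14, chr14:124192547-124192796, minus strand: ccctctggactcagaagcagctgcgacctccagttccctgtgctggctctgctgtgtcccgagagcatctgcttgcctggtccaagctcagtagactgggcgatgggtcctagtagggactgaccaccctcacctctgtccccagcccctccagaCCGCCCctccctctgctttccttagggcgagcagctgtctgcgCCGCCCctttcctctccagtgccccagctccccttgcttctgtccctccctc
Fgfrl1, chr5:108693979-108694228, plus strand: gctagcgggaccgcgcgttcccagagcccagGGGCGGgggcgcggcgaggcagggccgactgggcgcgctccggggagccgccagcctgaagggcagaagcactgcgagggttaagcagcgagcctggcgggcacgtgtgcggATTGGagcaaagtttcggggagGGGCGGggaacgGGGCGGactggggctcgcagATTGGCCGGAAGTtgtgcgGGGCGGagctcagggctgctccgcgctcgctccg
Etv5, first of 2 starts, chr16:22438369-22438618, minus strand: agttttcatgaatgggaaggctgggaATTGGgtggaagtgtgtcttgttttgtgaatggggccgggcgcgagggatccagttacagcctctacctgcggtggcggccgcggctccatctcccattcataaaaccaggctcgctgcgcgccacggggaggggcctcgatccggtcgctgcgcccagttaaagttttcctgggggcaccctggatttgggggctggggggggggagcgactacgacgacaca
Etv5, second start, chr16:22439571-22439820, minus strand: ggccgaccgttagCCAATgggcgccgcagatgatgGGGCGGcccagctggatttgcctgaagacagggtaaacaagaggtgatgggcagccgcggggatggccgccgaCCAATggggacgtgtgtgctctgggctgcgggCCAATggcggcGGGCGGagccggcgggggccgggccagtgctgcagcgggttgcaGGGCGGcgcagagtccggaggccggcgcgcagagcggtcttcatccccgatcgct
The ETS sequence lay in the Fgfrl1 promoter at -48 from the start, directly after an inverted CCAAT box, and in none of the other 32 member promoters. It was found in 2.88% of 32851 promoters of the same length. CCAAT was found in 12 of the 33 member promoters and in 33.8% of all, and GGGCGG in 21 of the 33 and in 32.7% of all. These are matches of letters and do not show that a factor was bound.

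Signal is given as log2 of the processed signal minus the 75th percentile of the array, called normalised signal here, so that 0 is the 75th percentile of the array and a difference of 1 is a doubling. Between 51.9% and 60.8% of the non-control spots of an array were well above background by the scanner software, and no spot was saturated. The father groups were compared for the 29718 probes that were well above background, and not among the dimmest 20% of the array, on at least 4 of the 8 arrays. Of the 49 member probes, 34 passed this filter, from 26 of the 34 genes. Each gene is described by its brightest tested probe, and its other probes are given where they differ. Normalised signal was not compared between genes, since probes differ in how well they bind.

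Among the FGF genes, the offspring of HOM fathers had more Spry4 RNA and less Etv4, Fgfrl1 and Etv5 RNA than the offspring of HET fathers, all on probes well above background in every embryo. Etv4 lost its call in 12 of 19 alternative settings, and Etv5 in 3. Fgf11 and Fgf14 (higher) and Fgf17 (lower) also passed the test, but their probes were dim and entered it through the group in which they were high, so the size of their changes is uncertain. The best known ligands of this stage, Fgf3, Fgf4, Fgf5, Fgf8, Fgf15 and Fgf18, did not pass the test, nor did the signalling receptors Fgfr1, Fgfr2, Fgfr3 and Fgfr4 on their brightest probes. A dimmer Fgfr1 probe was 0.64 higher and passed, while the other Fgfr1 probes did not. By limma with Benjamini-Hochberg adjustment over all tested probes (adjusted p below 0.05), 3 of 26 members were higher (11.5%) and 4 were lower (15.4%). Of all tested probes, 12.2% were higher and 9.08% were lower, so the share of members that were higher was near that of all probes, and the share that were lower rested on 4 genes. Counted by probe, as the share of all probes is, 4 of the 34 tested member probes were higher and 4 were lower. With signal well above background required on all 8 arrays, 23 members were tested, of which 1 was higher and 3 were lower, where 3141 of 26453 probes were higher and 2913 lower. The groups of 4 embryos did not overlap for 3 members that were higher and 3 that were lower, where 13.9% of all tested probes lay wholly above and 13.5% wholly below. At the limits used in the study, at least 2-fold with adjusted p below 0.01, Spry4 was the single member called, against 1.22% of tested probes that were higher and 0.0269% that were lower at those limits. The median log2 change over the 26 members was -0.02, beside -0.03 over all tested probes. Because these are whole embryos, fewer cells of a type and less RNA per cell cannot be told apart.

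**Figure D1:**
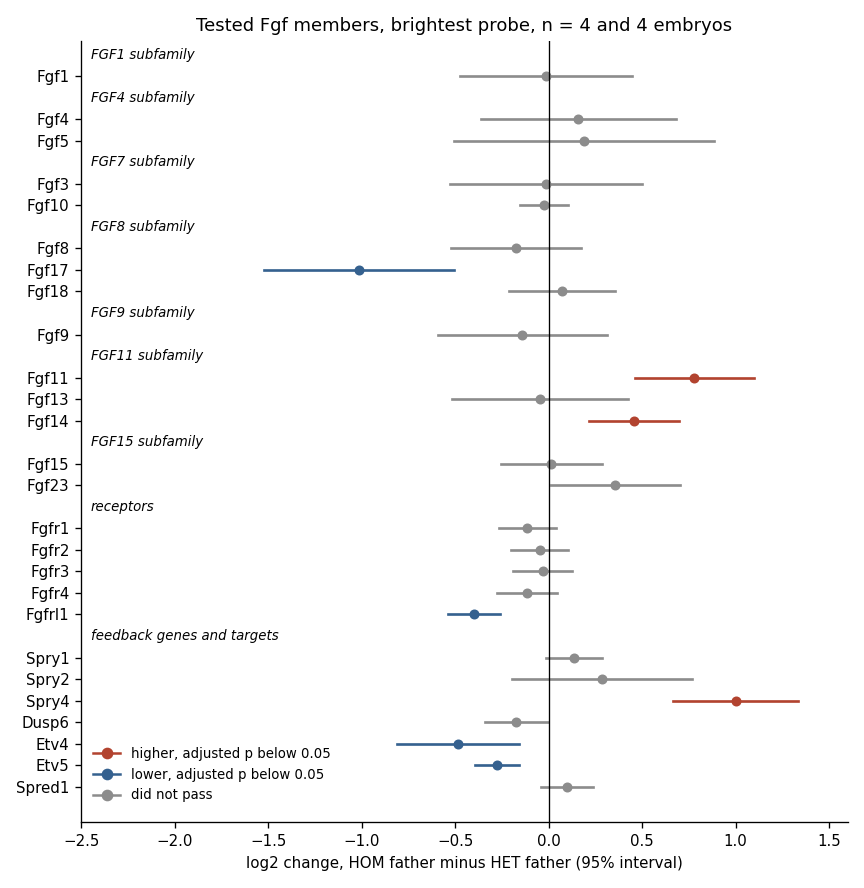
Log2 change of each of the 26 tested members (HOM father minus HET father, brightest probe, 4 embryos in each group) on the horizontal axis, with its 95% interval, grouped by ligand subfamily or role. Points in red and blue passed the test, from Spry4 at 1.00 down to Fgf17 at -1.01, and all others but Fgf23 and Spry2 lie within 0.2 of 0. The size of the change is uncertain for Fgf11, Fgf14 and Fgf17, whose probes were dim.

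The counts depended on the scaling. With each array scaled to its median instead of its 75th percentile, the median change over all tested probes went from -0.03 to -0.22, and the share of passing probes that were higher from 57.4% to 18.0%. With that scaling, which lowers the change of every probe by about the same amount, 3 members were higher and 8 lower. Of the 29718 tested probes, 2324 were then higher and 10614 lower. Spry4, Fgf11, Fgf14, Fgf17, Etv4, Fgfrl1 and Etv5 passed in the same direction. The small changes of Fgf4, Fgf5, Fgf15, Fgf18, Spry1 and Spred1, none of which passed, went from above to below 0 with the shift. Fgfr1 (-0.30), Fgfr2 (-0.24), Fgfr4 (-0.31) and Dusp6 (-0.36) passed as lower only there or, for Dusp6, also with another background correction.

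In the FGF8 subfamily 1 of 3 ligands passed the test. Fgf17, a close relative of Fgf8 known for its part in cerebellar and midbrain growth, had a normalised signal of -4.46, -5.17, -5.22 and -5.24 in the 4 embryos of HOM fathers. It was at -4.24, -3.66, -4.31 and -3.83 in the embryos of HET fathers. The groups did not overlap, and 1 HOM father embryo, replicate 1, lay close to the HET father range. The mean was 1.01 lower (SE 0.22, limma adjusted p = 0.0160). The probe was well above background on 1 HOM father array and on all 4 HET father arrays, so it passed the filter through the HET father group and the size of the difference is uncertain.

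Fgf8 itself, the main FGF ligand of the tailbud and of the midbrain-hindbrain border, was at 0.26, 0.72, 0.83 and 0.36 in HOM father embryos and at 0.53, 0.60, 0.84 and 0.90 in HET father embryos. The groups overlapped on this probe and the change of -0.17 (95% interval -0.52 to 0.17) did not pass (adjusted p = 0.449). A dimmer Fgf8 probe read -1.95, -1.55, -1.36 and -1.94 against -1.53, -1.36, -1.29 and -1.14, a change of -0.37 that did not pass either (adjusted p = 0.128). Fgf18, the third member, which acts in skeletal growth later on, was at 1.65, 1.17, 1.40 and 1.59 in HOM father embryos and at 1.53, 1.19, 1.35 and 1.46 in HET father embryos. Its change was 0.07 (95% interval -0.21 to 0.35, adjusted p = 0.722), and the groups overlapped over nearly their whole range.

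Both ligands called higher were of the intracellular FGF11 subfamily, on dim probes. Fgf11 was at -4.02, -4.07, -4.03 and -3.87 in HOM father embryos and at -4.37, -4.999, -4.75 and -4.97 in HET father embryos. All 4 HOM father embryos lay above all 4 HET father embryos, by 0.78 on average (SE 0.14, adjusted p = 0.00728). The probe was well above background on 4 HOM father arrays and on 1 HET father array, so it passed the filter through the HOM father group and the size of the difference is uncertain.

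Fgf14, a modulator of neuronal sodium channels, was at -4.31, -4.42, -4.31 and -3.95 in HOM father embryos and at -4.62, -4.70, -4.68 and -4.82 in HET father embryos. The groups did not overlap, and the mean was 0.46 higher (SE 0.10, adjusted p = 0.0193). The Fgf14 probe was well above background on 4 HOM father and 2 HET father arrays, so the same limit holds, and neither of the 2 other Fgf14 probes passed the filter. Fgf13 of the same subfamily changed by -0.05 (adjusted p = 0.900), and Fgf12 had no tested probe.

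In the FGF4 subfamily, Fgf4, which acts with Fgf8 in the presomitic mesoderm, was at -1.33, -0.56, -1.42 and -0.70 in HOM father embryos and at -0.81, -1.28, -1.15 and -1.40 in HET father embryos. Its groups overlapped, with a change of 0.16 (95% interval -0.36 to 0.68, adjusted p = 0.657). Fgf5, a ligand of the early epiblast, was at -4.38, -3.13, -3.45 and -3.77 against -3.36, -4.02, -3.76 and -4.35. The spread among embryos of 1 group was larger than the change of 0.19 (adjusted p = 0.696).

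Fgf3 of the FGF7 subfamily, known for induction of the inner ear beside the hindbrain, was at -2.74, -2.30, -2.42 and -1.61 in HOM father embryos and at -2.36, -2.35, -2.07 and -2.22 in HET father embryos. It changed by -0.01 (95% interval -0.53 to 0.50, adjusted p = 0.972), with a wider spread in HOM father embryos (SD 0.48) than in HET father embryos (SD 0.14). Fgf15, the endocrine-type ligand that is also made in the embryonic brain, was at -0.06, 0.45, 0.40 and 0.15 against 0.17, 0.33, 0.23 and 0.13. Fgf15 changed by 0.01 (95% interval -0.25 to 0.28, adjusted p = 0.945). Of the remaining tested ligands, Fgf1 (-0.01), Fgf10 (-0.02) and Fgf9 (-0.14) did not pass. Fgf23, a hormone of phosphate balance made in bone, changed by 0.36 (adjusted p = 0.131) on a bright probe, while its other probe was well above background on 1 array alone. Leaving out HOM father replicate 2 brought Fgf23 past the threshold (0.48, adjusted p = 0.0342).

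**Figure D2:**
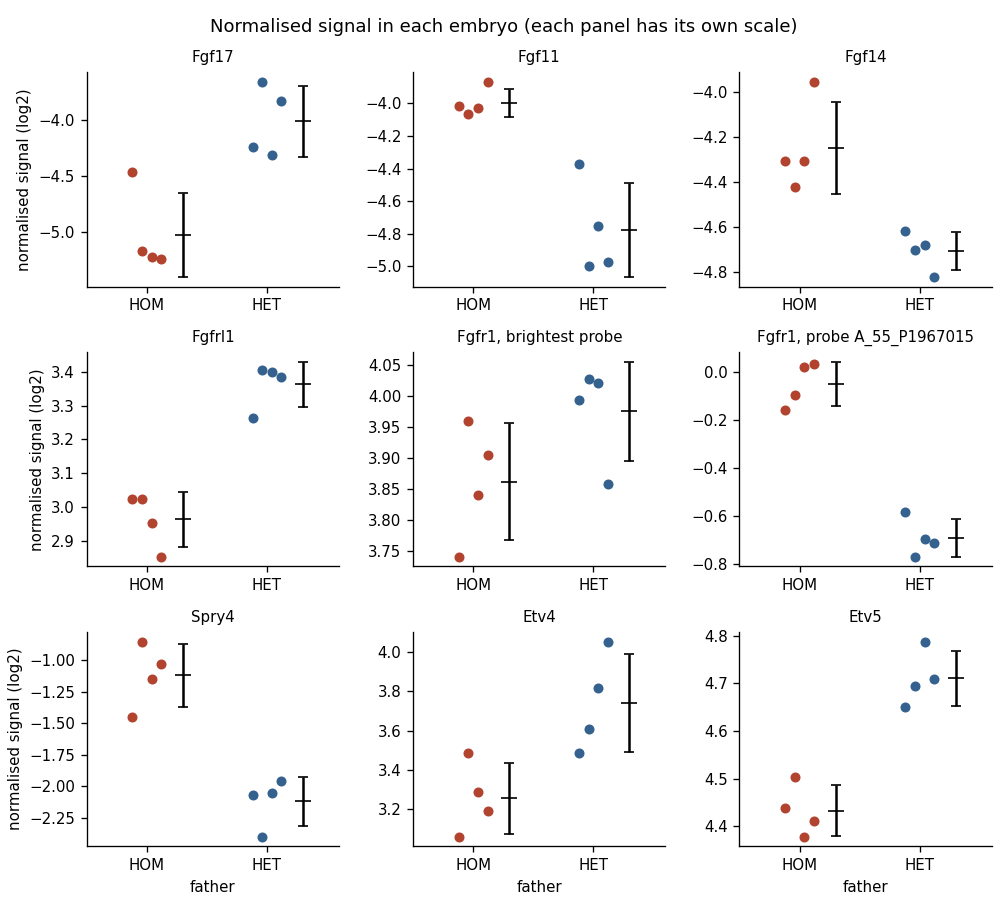
Normalised signal (log2, vertical axis, a separate scale in each panel) in each embryo of HOM fathers (red) and HET fathers (blue) for the 7 members that passed the test and for 2 probes of Fgfr1. The bars give the mean and SD of 4 embryos. The groups are apart in every panel except Etv4 and the brightest Fgfr1 probe. The probes of Fgf11, Fgf14 and Fgf17 were dim and entered the test through the group in which they were high.

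Among the receptors, the one called was Fgfrl1, which binds FGF but lacks the kinase domain of the other receptors. It was at 3.02, 3.02, 2.95 and 2.85 in HOM father embryos and at 3.26, 3.40, 3.40 and 3.38 in HET father embryos. The groups did not overlap, and the mean was 0.40 lower (SE 0.06, 1.32-fold, adjusted p = 0.00354). The probe was bright, in decile 9 of the tested probes by mean signal. Its promoter, printed above, was the one with an ETS sequence.

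Fgfr1, the main FGF receptor of the mesoderm, gave 2 readings. On its brightest probe (A_55_P2057777) it was at 3.74, 3.96, 3.84 and 3.90 in HOM father embryos and at 3.99, 4.03, 4.02 and 3.86 in HET father embryos, a change of -0.11 that did not pass (adjusted p = 0.261). A second probe (A_55_P1967022) changed by -0.10 (adjusted p = 0.331). The third probe (A_55_P1967015) read -0.16, -0.09, 0.02 and 0.03 against -0.58, -0.77, -0.70 and -0.71. On this probe all HOM father embryos lay above all HET father embryos, by 0.64 (SE 0.07, 1.56-fold, adjusted p = 0.000736), and it passed in the same direction under all 18 alternative settings that gave it a value. The array assigns all 3 probes to the same RefSeq transcript, NM_010206, and which part of it each reads was not analysed here. Averaging the 3 probes gave 0.14 (adjusted p = 0.0971), so neither direction stands for the gene.

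Fgfr2, the receptor of epithelia and of the limb and otic fields, was at -0.81, -0.83, -0.66 and -0.62 in HOM father embryos and at -0.64, -0.63, -0.68 and -0.76 in HET father embryos. It changed by -0.05 (95% interval -0.20 to 0.10, adjusted p = 0.635). Fgfr3 was at 2.38, 2.67, 2.44 and 2.49 against 2.51, 2.55, 2.57 and 2.48, and changed by -0.03 (95% interval -0.19 to 0.13, adjusted p = 0.778). The intervals of Fgfr2 and Fgfr3 leave room for changes of up to 0.20 downwards. Fgfr4 changed by -0.12 (95% interval -0.27 to 0.04, adjusted p = 0.269). The second tested probes of Fgfr2, Fgfr3 and Fgfr4 did not pass either.

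The feedback genes and targets did not move as 1 group. Spry4, an inhibitor of receptor signalling that FGF induces, rose by the largest amount of the tested members. It was at -1.45, -0.85, -1.15 and -1.03 in HOM father embryos and at -2.07, -2.40, -2.05 and -1.96 in HET father embryos. The groups were well apart, with a mean 1.00 higher (SE 0.14, 2.00-fold, adjusted p = 0.00303), just at the 2-fold limit. Without 1 of HOM father replicates 2, 3 or 4 or HET father replicate 2, Spry4 no longer met the fold limit or the adjusted p of 0.01, with changes from 0.91 to 1.01, and it passed adjusted p below 0.05 each time. Spry4 has no entry among the promoters used here.

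The other Sprouty and Spred genes did not pass. Spry2 was at -2.11, -1.07, -1.71 and -1.50 in HOM father embryos and at -1.73, -2.00, -1.75 and -2.04 in HET father embryos. The HOM father embryos spread over more than the HET father embryos and on both sides of them, with a change of 0.28 (95% interval -0.20 to 0.77, adjusted p = 0.372). Spry1 changed by 0.14 (adjusted p = 0.184) and Spred1 by 0.10 (adjusted p = 0.277).

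The transcription factor targets were lower. Etv5 was at 4.44, 4.50, 4.38 and 4.41 in HOM father embryos and at 4.65, 4.69, 4.79 and 4.71 in HET father embryos. These groups did not overlap, and the mean was 0.28 lower (SE 0.05, 1.21-fold, adjusted p = 0.00828), with an SD of 0.05 and 0.06 within the groups. With normexp background correction Etv5 changed by -0.11 and did not pass (adjusted p = 0.160).

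Etv4 was at 3.06, 3.49, 3.28 and 3.19 in HOM father embryos and at 3.49, 3.61, 3.82 and 4.05 in HET father embryos. The groups met at their edges, HOM father replicate 2 with HET father replicate 1, and the mean was 0.49 lower (SE 0.14, 1.40-fold, adjusted p = 0.0443). The call was lost without any 1 of 6 embryos, HOM father replicates 1, 3 and 4 and HET father replicates 2, 3 and 4, with changes from -0.53 to -0.38 and adjusted p from 0.0650 to 0.105. A second Etv4 probe changed by -0.32 and did not pass (adjusted p = 0.214). Dusp6, the phosphatase that inactivates Erk, was at 3.38, 3.44, 3.52 and 3.43 in HOM father embryos and at 3.59, 3.46, 3.65 and 3.77 in HET father embryos, a change of -0.17 (adjusted p = 0.137). All but 1 of the HOM father embryos were below the lowest HET father embryo for Dusp6.

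**Figure D3:**
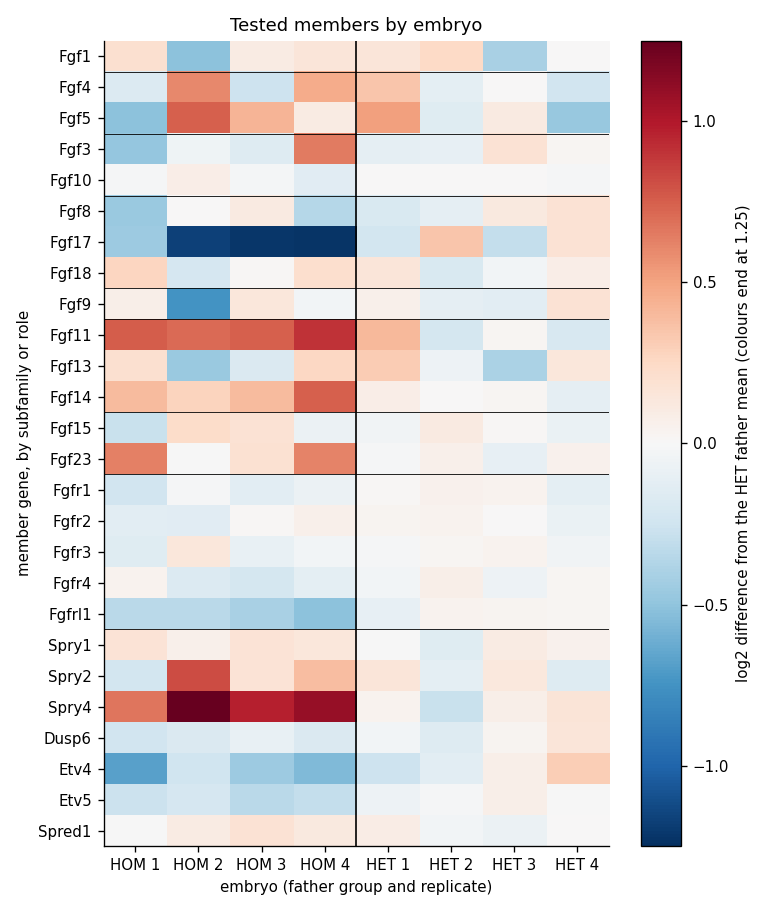
Difference of each tested member (vertical axis, grouped by subfamily or role) from its HET father mean, on the log2 scale, in each of the 8 embryos (horizontal axis). Spry4 and Fgf11 are higher, and Fgf17, Fgfrl1 and Etv5 lower, in all 4 embryos of HOM fathers, while Fgf5, Fgf3 and Spry2 differ among embryos of the same group. The probes of Fgf11 and Fgf17 were dim and entered the test through the group in which they were high.

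The changed members stood at different signal levels, and the change of all probes also differed with signal. Fgf11, Fgf14 and Fgf17 lay in decile 1 of the tested probes, the dimmest, where the median change was 0.19 and 17.8% of probes were higher and 1.28% lower. Spry4 lay in decile 4, with a median change of 0.01, 17.6% higher and 4.17% lower. Fgfrl1 and Etv4 lay in decile 9 (median change -0.08, 4.95% higher and 18.7% lower) and Etv5 in decile 10 (median change -0.10, 3.47% higher and 21.0% lower). The part of signal level in these calls was not tested.

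**Figure D4:**
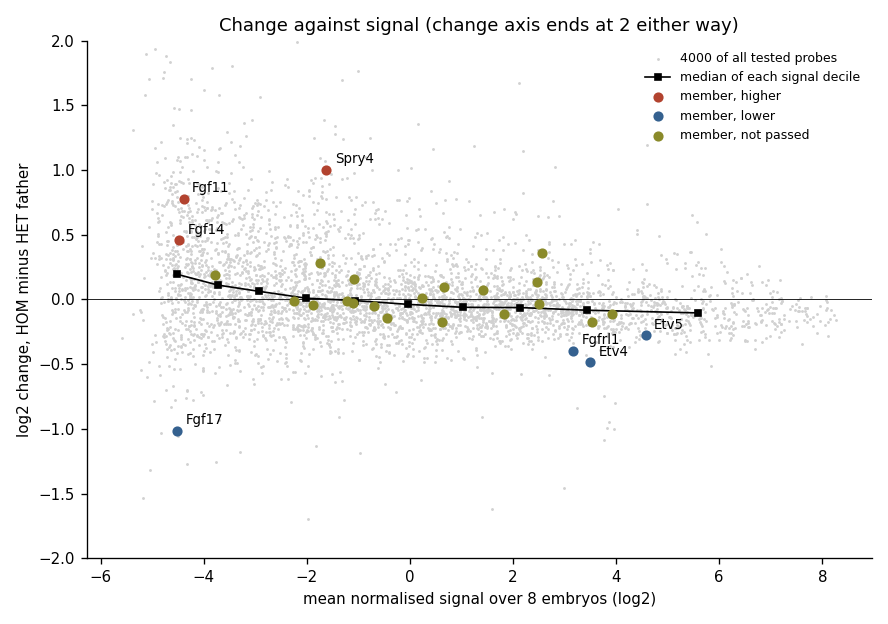
Log2 change (HOM father minus HET father, vertical axis) against mean normalised signal over the 8 embryos (log2, horizontal axis) for 4000 of the tested probes drawn at random (grey) and for the 26 tested members. The black line joins the median of each decile of the probes by signal, which falls from 0.19 to -0.10.

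Fgf8, Fgf17, Etv4 and Etv5 are all active in the tailbud, so its markers were read in the same embryos. Other members went the other way. Fgf4, which acts with Fgf8 in the presomitic mesoderm, changed by 0.16 and did not pass. Among the feedback genes, Spry4 was 1.00 higher, and Spry2 changed by 0.28 without passing. Of 6 genes listed for the presomitic mesoderm and tailbud, 5 were tested, and 3 were lower in the offspring of HOM fathers, with none higher, beside 9.08% of all tested probes that were lower and 13.5% that lay wholly below. Hes7, an oscillating repressor of the segmentation clock, was at 1.73, 1.69, 1.63 and 1.59 in HOM father embryos and at 1.88, 2.02, 1.98 and 2.16 in HET father embryos (-0.35, adjusted p = 0.0115). Its groups did not overlap. Msgn1 (-0.44, adjusted p = 0.0397) and Tbx6 (-0.32, adjusted p = 0.0340), which specify presomitic mesoderm, were also lower without overlap. Cdx2 (-0.22, adjusted p = 0.113) and Dll1 (-0.13, adjusted p = 0.225) did not pass, and Wnt3a was not tested. The mean difference of the 5 genes from the HET father mean was between -0.30 and -0.28 in every HOM father embryo and between -0.05 and 0.04 in the HET father embryos. The part of tailbud content in the lower levels of Fgf17, Etv4 and Etv5 was not tested.

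**Figure D5:**
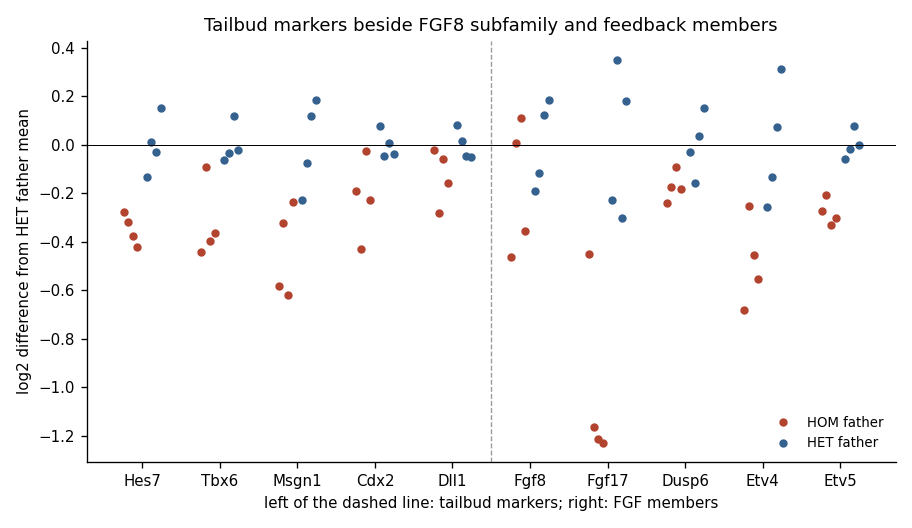
Log2 difference from the HET father mean (vertical axis) in each embryo of HOM fathers (red) and HET fathers (blue) for the 5 tested tailbud markers and for 5 FGF members. Fgf4, Spry2 and Spry4, which changed in the other direction, are not drawn. Hes7, Tbx6, Msgn1, Fgf17 and Etv5 are apart between the groups, and Fgf8 is not. The Fgf17 probe was dim and entered the test through the HET father group.

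Markers of other cell types were read too. None of the 3 tested genes of the midbrain-hindbrain border, where Fgf8 and Fgf17 are known to be made, passed (Pax2, Wnt1 and En2, from 0.05 to 0.33), nor did any of 4 forebrain, 3 neural tube or 3 somite genes. Elsewhere single genes were lower, Myl7 of 4 heart genes (-0.25), Apoa1 of 6 visceral and yolk sac endoderm genes (-0.41) and Gcm1 of 4 trophoblast genes (-1.07), a list whose median change was 0.15. The erythroid list had a median change of -0.30 over 4 genes, and its mean difference from the HET father mean was between -0.65 and -0.14 in the HOM father embryos and between -0.05 and 0.13 in the HET father embryos. Of its 4 genes, 1 passed as lower and 2 lay wholly below, beside 9.08% and 13.5% of all tested probes. The embryonic globin Hba-x was 1 of the 2 that lay wholly below, but it did not pass (-0.34, adjusted p = 0.0541). The part of blood cell content in the member values was not tested. None of the allantois, endothelium, gut endoderm or decidua genes passed. The decidual gene Prl8a2 ranged from -3.99 to 4.45 among the 8 embryos, with a mean 2.96 higher in the offspring of HOM fathers (adjusted p = 0.215). The trophoblast gene Prl3d1 ranged from -3.16 to 1.97, with a mean 1.88 higher (adjusted p = 0.208). Neither passed, the groups overlapped for both, and the part of this in the member values was not tested.

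The rest of the pathway was read from 5 lists of 81 further genes, of which 76 were tested. Of these, 6 were higher (7.89%, beside 12.2% of all tested probes) and 10 were lower (13.2%, beside 9.08%), and the median log2 change was -0.06. None of the 4 tested co-receptors passed, the lowest adjusted p being that of Flrt3 (-0.14, adjusted p = 0.148), Flrt2 (-0.26) and Flrt1 (-0.08). Among 15 tested adaptors, only Frs3 passed. Frs3, a docking protein that links the receptors to Ras, was at -2.84, -3.23, -3.20 and -3.28 in HOM father embryos and at -3.97, -4.20, -4.19 and -4.22 in HET father embryos. It was 1.00 higher without overlap (SE 0.11, adjusted p = 0.000947), as large a change as that of Spry4 but on a dimmer probe.

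In the Ras-Erk cascade 2 of 16 tested genes were higher (12.5%) and 4 lower (25.0%), read against the same shares of 12.2% and 9.08%. The genes with the lowest adjusted p were Nf1, a brake on Ras (0.39, adjusted p = 0.00383), Map2k2, which encodes the Erk kinase Mek2 (-0.35, adjusted p = 0.00470), and Mapk3, which encodes Erk1 (-0.26, adjusted p = 0.0107). Rasa1, another brake on Ras, was higher too (0.34), and Rps6ka1, a kinase that Erk activates, was lower (-0.26). The second tested probes of Map2k2 (-0.08, adjusted p = 0.330) and Mapk3 (-0.18, adjusted p = 0.0836) did not pass. Of 22 tested heparan sulfate genes, 2 were higher (9.09%) and 5 lower (22.7%), against the same 12.2% and 9.08% of all tested probes, led by Hspg2 (-0.49, adjusted p = 0.0109), Hs3st1 (0.46, adjusted p = 0.0187) and Sdc1 (-0.27, adjusted p = 0.0227). Hspg2 and Sdc1 encode core proteins that carry heparan sulfate, and Hs3st1 encodes an enzyme that adds sulfate to it. Of 19 other feedback and response genes, Lrig3 was lower (-0.25, adjusted p = 0.00785) and Fos, an immediate early gene, was higher (0.46, adjusted p = 0.0253). Il17rd, a membrane inhibitor of FGF signalling, did not pass (-0.18, adjusted p = 0.0762). Under median scaling the counts over the 5 lists became 2 higher and 35 lower. With that scaling 2324 of all 29718 tested probes were higher and 10614 were lower.

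No member differed between female and male embryos by limma with father as a covariate (0 of 26 at adjusted p below 0.05, and 0 of the 34 member probes at an unadjusted p below 0.05), where 0.121% of all tested probes did. The lowest adjusted p was 0.927. The father difference was not found to depend on sex for any member by the interaction term (0 of 26), where 0.0639% of tested probes passed. With an unadjusted p below 0.05 there were 2 members, Fgf17 (0.94, unadjusted p = 0.0267) and Fgf11 (-0.51, unadjusted p = 0.0392), both with an adjusted p of 0.999. With 2 embryos for each father and sex, such an interaction can be seen only if it is large.

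The remaining 8 members were not tested. Fgf2, Fgf12, Fgf16 and Fgf22 were well above background on no array with any of their probes. Fgf6, Fgf7, Fgf20 and Fgf21 were well above background on 1 array each. Fgf20 was at -2.91 in HOM father replicate 2 and between -7.04 and -5.87 in the other embryos. Fgf21 was at -3.51 in HET father replicate 3 and at -5.60 or lower elsewhere, and the second Fgf23 probe was at -2.49 in the same embryo and at -5.82 or lower elsewhere. The readings above background of Fgf20, Fgf21 and the second Fgf23 probe thus came from single embryos and not from a father group.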

How the data were processed

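Cy3-labelled RNA from each of 8 embryos (0.2 ug of total RNA) was hybridised to 1 array, and the deposited intensities are processed signals from Agilent Feature Extraction 11.0.1.1, already background-subtracted, beside deposited spot flags (other: well above background, saturated, non-uniform, population outlier). The authors scaled arrays by percentile shift. The series value table, also a deposited intensity, equals these signals after rounding. Spots were read for 59305 non-control features, and 1515 flagged values were left out. Signals were taken as log2 minus the 75th percentile of the array, and spots of a probe were averaged. Probes below the 20th percentile, or not flagged well above background, on more than 4 of the 8 arrays were left out. The test was run with limma 3.58.1 in R 4.3.3 (lmFit, eBayes, two-sided, Benjamini-Hochberg adjustment over all tested probes). Genes were named through RefSeq accessions, which gave a symbol to 27235 probes (48.9%).

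The father comparison had no covariate, the sex comparison had father as one, and the interaction was fitted with both. A gene stood for its tested probe with the highest mean. Values were given in every embryo for members that passed or whose groups did not overlap and for a list of genes best known at this stage, and for other lists the 3 genes of lowest adjusted p. The members and lists were chosen with earlier results of these data known. Alternatives were other scalings, background corrections, filters, blocks and variance models, and leaving out each embryo. The consensus correlation of embryos that shared an identifier prefix was 0.30 in limma. Normexp used the median spot signal (offset 50), in place of the mean spot signal first planned. The limma fit was tested on simulated data. Values of 2 genes of the lists are not reported here. The number of arrays limits the precision, and p-values measure the spread between single embryos, some of which shared a sire.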

Additional observations from a re-analysis of the deposited data

Results flagged for a closer look

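In 3 of the 52 groups of 4 embryos examined for the 26 tested members, 1 embryo stood far from the other 3, where chance gives about 1 in 20 groups, or 2.6. Fgf1 was at -1.74 in HOM father replicate 2, with the other 3 HOM father embryos between -1.11 and -1.02. Fgf17 was at -4.46 in HOM father replicate 1, with the others between -5.24 and -5.17, and without it the change was -1.20. Fgfrl1 was at 3.26 in HET father replicate 1, with the others between 3.38 and 3.40.

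Untested probes were above background in HOM father embryos alone for 3 members, and in HET father embryos alone for 3 others (Fgf6, Fgf21 and the second Fgf23 probe). Fgf7 was at -4.31 in HOM father replicate 1, with a next highest value of -4.81. The third Fgf8 probe was at -3.50 in HOM father replicate 4, with a next highest value of -4.91. Fgf20 was at -2.91 in HOM father replicate 2, with a next highest value of -5.87. Each of these 3 readings came from 1 array, and no cause was tested.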

How the results depend on the processing

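Of the 7 members called, Spry4, Fgf11 and Fgfrl1 passed in the same direction under every alternative that gave them a value. Fgf17 lost its call with a replicate block (adjusted p = 0.0605), Fgf14 in 6 alternatives, Etv4 in 12 and Etv5 in 3, and the cause was not tested. The main counts were 3 members higher and 4 lower, and 1 higher and 0 lower at 2-fold with adjusted p below 0.01. Members lower were 8 under median scaling, 2 with no filter and 1 (Fgfrl1) with the replicate block. Probes lower were 10614 of 29718, 460 of 55644 and 726 of 29718 in that order, beside 2699 of 29718 in the main fit. Members higher were 1 with well above background required on all arrays, where Fgf11, Fgf14 and Fgf17 were not tested. The 2-fold count of members higher was 0 under quantile normalisation, median scaling, normexp, no filter, the replicate block and the identifier prefix as a random block, and 0 to 1 when embryos were left out. The 2-fold count of members lower was 1 (Fgf17) under median scaling and 0 to 1 when embryos were left out, being 1 without HOM father replicate 1. Same-numbered embryos deviated together with correlations of 0.19, -0.09, -0.13 and 0.15, so the numbers were not taken to pair them, and the block changed the calls of Fgf14 (adjusted p = 0.0761), Etv4 (0.0807) and Etv5 (0.0579) too. The median change of the members was -0.21 under median scaling and between -0.05 and 0.00 otherwise. The other pathway lists, 6 higher and 10 lower, had 6 lower under quantile normalisation, 2 higher and 35 lower under median scaling and 3 higher with normexp. Of all 29718 tested probes, 2417 were lower under quantile normalisation and 3456 higher with normexp, beside 2699 lower and 3635 higher in the main fit. Member counts by sex and interaction stayed at 0.

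Changes that turned sign belonged to members that did not pass. Under median scaling these were Fgf4 (-0.0318), Fgf5 (-0.00111), Fgf15 (-0.175), Fgf18 (-0.12), Spry1 (-0.0549) and Spred1 (-0.0908), under quantile normalisation Fgfr3 (0.00943), with normexp Fgf1 (0.0242) and Fgf13 (0.122), and with probes averaged Fgfr1 (0.144). With 1 embryo left out in turn, the range was -0.149 to 0.153 for Fgf1, -0.234 to 0.143 for Fgf3, -0.236 to 0.0598 for Fgf9, -0.0594 to 0.0154 for Fgf10, -0.177 to 0.093 for Fgf13, -0.0566 to 0.112 for Fgf15 and -0.0901 to 0.00634 for Fgfr3. Signal over background limits Fgf11, Fgf14 and Fgf17.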
